A study of Mus musculus with 9 samples.

Results

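The 9 genes described here encode myelin proteins and other products of mature oligodendrocytes: Mbp, Mobp, Cnp, Ermn, Mog, Mag, Mal, Cldn11 and Opalin. They were taken by name, by a rule that uses no measured value, from the 47643 genes of a count table of mouse hippocampus, and all 9 had reads in every library. The table holds 9 poly-A RNA-seq libraries, 3 from MRL/mpj mice, the control strain, 3 from MRL/lpr mice and 3 from MRL/lpr mice that received mesenchymal stem cells (MSCs), named MRL/lpr+MSC. MRL/lpr mice carry the lpr insertion in Fas, a death receptor gene, on the MRL background and develop lupus-like autoimmunity. All mice were sampled at 6 weeks of age. The labels enter the strain of every library as C57BL/6, whereas the study's design text and methods name MRL/mpj and MRL/lpr. The series title describes the MRL/lpr mice as given PBS or MSCs, while the labels call MRL/mpj and MRL/lpr untreated. Dose, route and time of the MSCs for these libraries are not given in the sources used here. No label says whether a library comes from 1 mouse or several. A figure legend of the study, on heat maps of its MRL/mpj and MRL/lpr hippocampus data, gives 1 mouse per column and does not mention MSCs.

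Oligodendrocytes wrap axons of the central nervous system in myelin, a stack of lipid-rich membrane that insulates the axon and speeds conduction. Cytoplasmic proteins such as Mbp and Mobp lie in the compacted layers, Cnp keeps cytoplasmic channels open between them, and membrane proteins such as Mog, Mag, Mal and Cldn11 face the outside, the axon or the neighbouring wrap. In the mouse hippocampus myelin is laid down during the first weeks after birth, and much of it lies in fibre tracts such as the alveus and fimbria.

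Library totals ran from 19475804 to 26912031 counts, and the members' own counts ran from 247 for Opalin to 138787 for Mbp. Libraries of 1 group differed from each other by more than sampling noise, so none was a duplicate deposit. Fas was at 1.63 to 1.998 CPM (counts scaled to the size of the library) in MRL/mpj, 1.32 to 2.28 in MRL/lpr and 0.997 to 1.82 in MRL/lpr+MSC. A count over the whole gene does not show the insertion, so these levels do not check the labels. In another processed table of the study, the columns headed MRL/lpr equal, up to a constant factor, the libraries labelled MRL/lpr+MSC here, and the columns headed MRL/mpj equal the libraries labelled MRL/mpj. The group names below are those of the labels. If the names of the MRL/lpr groups were exchanged, the values given for each of them against MRL/mpj would change places and the sign of MRL/lpr+MSC against MRL/lpr would turn. A comparison of all 6 libraries of the MRL/lpr groups with MRL/mpj does not depend on which is which, and it was therefore added after the data were seen.

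Promoter sequence from RefSeq (build GRCm38.p6) matched 8 of the 9 members, all but Mbp. Shown here are the windows before the annotated start of the member with the lowest log2 fold change of the MRL/lpr groups against MRL/mpj (Mobp), of the member with the highest (Ermn), and of Cnp, against which Mobp is set below. They are Mobp chr9:120149492-120149706 on the plus strand, Ermn chr2:58052865-58053114 on the minus strand and Cnp chr11:100574689-100574903 on the plus strand. Capitals mark, on either strand, the E-box CANNTG, the SOX letters ACAAAG and ACAATG, and the Myrf letters CTGGNAC. SOX10 and MYRF are transcription factors known to act on myelin genes, and OLIG2 is of the family that binds E-boxes.
Mobp: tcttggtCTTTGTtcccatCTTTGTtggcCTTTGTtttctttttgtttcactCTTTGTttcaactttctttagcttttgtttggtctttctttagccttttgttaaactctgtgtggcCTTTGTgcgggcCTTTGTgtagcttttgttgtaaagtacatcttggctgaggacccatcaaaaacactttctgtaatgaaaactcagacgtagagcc
Ermn: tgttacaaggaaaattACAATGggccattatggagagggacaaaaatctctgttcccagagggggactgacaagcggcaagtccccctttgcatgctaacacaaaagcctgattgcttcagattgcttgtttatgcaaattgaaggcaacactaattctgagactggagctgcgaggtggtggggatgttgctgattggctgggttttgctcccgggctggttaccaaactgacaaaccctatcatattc
Cnp: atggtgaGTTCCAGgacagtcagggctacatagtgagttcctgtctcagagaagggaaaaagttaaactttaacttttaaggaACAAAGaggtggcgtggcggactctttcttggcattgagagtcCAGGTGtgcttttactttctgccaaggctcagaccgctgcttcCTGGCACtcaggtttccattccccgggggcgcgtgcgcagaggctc
The Mobp window held 6 SOX matches, all read on the opposite strand as CTTTGT. Of 32817 promoters searched over 250 bases before the start, 1 held at least 6, and this was Mobp. The cut of 6 was taken from the Mobp count itself, so it is no test. The matches repeat within a T-rich stretch, and no count to be expected from such a stretch was made. The Ermn window held 1 SOX match, and the Cnp window held 1 SOX match, 1 E-box and 2 Myrf matches, none overlapping another. Over the 8 matched members, SOX letters were found for 5, against 25.25% of all promoters, Myrf letters for 3 (16.06% of all) and an E-box for 3 (66.22% of all). A GC box (GGGCGG) was found for 1 member (32.72% of all), CCAAT for 3 (33.83%) and TATAAA for 0 (12.37%). A member counted where any of its windows matched, whereas the shares are per promoter. Of the members' 10 windows, 6 held SOX letters, 4 Myrf letters, 4 an E-box, 1 a GC box, 4 CCAAT and 0 TATAAA. The Mobp promoter had a GC content of 40.8%, and the median over all promoters was 52.4%. These matches describe letters in a window and say nothing of binding.

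Levels per gene length were taken from the deposited FPKM (fragments scaled to gene length and library size), the scale on which different genes can be compared. In MRL/mpj the order of the FPKM levels was Mbp (447 ± 32.7, SD, n = 3), Mobp (165 ± 8.37), Cldn11 (121 ± 3.54), Cnp (115 ± 5.22), Mal (109 ± 1.44), Mog (48.2 ± 2.62), Mag (42.4 ± 2.59), Ermn (16.1 ± 1.26) and Opalin (13.9 ± 1.48). Neighbours in this order whose means lay closer than the sum of their SDs were Cldn11 and Cnp, Cnp and Mal, and Ermn and Opalin. Mbp had rank 1 in all 9 libraries. Mobp had rank 2 in all 3 MRL/mpj libraries and rank 3 in all 6 libraries of the MRL/lpr groups, where Cnp, at rank 4 in MRL/mpj, had rank 2. The FPKM of Mobp was 105 ± 37.8 in MRL/lpr and 88.4 ± 25.4 in MRL/lpr+MSC, and that of Cnp was 108 ± 41.1 and 96.2 ± 23.3, so on group means these neighbours differed by much less than their spread. Cldn11 had rank 3 in MRL/mpj and rank 4 or 5 in the other 6 libraries.

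The 9 members together took 0.571%, 0.565% and 0.609% of all counts in the MRL/mpj libraries. In MRL/lpr they took 0.796%, 0.398% and 0.502%, and in MRL/lpr+MSC 0.317%, 0.606% and 0.509%. MRL/mpj was thus narrow and the MRL/lpr groups were wide, with MRL/lpr replicate 1 above and MRL/lpr+MSC replicate 1 below every other library.

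Of the 4 cytoplasmic members, Mbp (ENSMUSG00000041607, GRCm38 chromosome 18, 82475146 to 82585637), myelin basic protein, was the most abundant, and it joins the inner faces of the membrane. Its CPM was 3705, 3512 and 4000.2 in MRL/mpj, 4872, 2570.1 and 3189 in MRL/lpr and 2198, 3936 and 3310.0 in MRL/lpr+MSC. The groups overlapped, with means of 3739 ± 246, 3544 ± 1191 and 3148 ± 880.3.

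Mobp (ENSMUSG00000032517, chromosome 9, 120149707 to 120181484) encodes a small basic protein of compact myelin. Its CPM was 1026, 1053 and 1114 in MRL/mpj (mean 1064 ± 45.2), 969, 483 and 613 in MRL/lpr (688 ± 252) and 401, 732 and 592 in MRL/lpr+MSC (575 ± 166). All 6 libraries of the MRL/lpr groups lay below all 3 MRL/mpj libraries, and Mobp was the only member for which this held. Of all genes, 18.8% lay below MRL/mpj without overlap in MRL/lpr and 13.6% in MRL/lpr+MSC. The share for all 6 libraries at once was not counted. MRL/lpr replicate 1 was the closest to MRL/mpj, although it was the highest of all 9 libraries for each of the other 8 members.

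Cnp (ENSMUSG00000006782, chromosome 11, 100574904 to 100591729) encodes 2′,3′-cyclic nucleotide phosphodiesterase, an early and abundant enzyme of the lineage. Its CPM was 402, 417 and 433 in MRL/mpj, 568, 274 and 345 in MRL/lpr and 259, 427 and 369 in MRL/lpr+MSC. Means were 417 ± 15.6, 395 ± 153 and 351 ± 85.3, and the groups overlapped. Cnp overlaps Dnajc7 on the opposite strand, and whether counting used strand is not stated, so its counts may hold reads of that gene. The same limit holds for Mbp with Rpl21-ps8, Ermn with Galnt5 and Mog with Gm22388, each on the opposite strand. Mobp overlaps Gm38642 on its own strand, where strand would not tell their reads apart.

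Ermn (ENSMUSG00000026830, chromosome 2, 58045113 to 58052864) encodes ermin, a cytoskeletal protein of late oligodendrocytes. Its CPM was 53.4, 61.2 and 60.5 in MRL/mpj, 108, 50.5 and 58.6 in MRL/lpr and 48.2, 80.8 and 67.0 in MRL/lpr+MSC. It was the only member with higher means in the MRL/lpr groups, 72.2 ± 30.9 and 65.4 ± 16.4 against 58.4 ± 4.30, with overlapping groups.

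Of the 5 membrane members, Mog (ENSMUSG00000076439, chromosome 17, 37010743 to 37023398), an immunoglobulin-like protein of the outermost layer and a known autoantigen, was at 77.6, 82.7 and 85.2 CPM in the MRL/mpj libraries, 93.8, 47.7 and 57.0 in MRL/lpr and 40.2, 71.3 and 60.2 in MRL/lpr+MSC. The MRL/lpr+MSC libraries all lay below MRL/mpj (57.2 ± 15.8 against 81.8 ± 3.87), whereas MRL/lpr (66.2 ± 24.4) overlapped it through replicate 1.

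Cldn11 (ENSMUSG00000037625, chromosome 3, 31149920 to 31164324), the claudin of the tight junctions between myelin wraps, was at 219, 225 and 229 CPM in the MRL/mpj libraries, 259.5, 134 and 141 in MRL/lpr and 104, 197 and 150.3 in MRL/lpr+MSC. It showed the pattern of Mog, with means of 224 ± 4.89, 178 ± 70.8 and 151 ± 46.3.

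Mag (ENSMUSG00000036634, chromosome 7, 30899176 to 30914873), a sialic acid-binding protein on the membrane next to the axon, was at 168, 166 and 182 CPM in the MRL/mpj libraries, 223, 104 and 131 in MRL/lpr and 96.2, 159 and 133 in MRL/lpr+MSC. Means were 172 ± 9.08, 153 ± 62.2 and 129.5 ± 31.6, and MRL/lpr+MSC did not overlap MRL/mpj.

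Mal (ENSMUSG00000027375, chromosome 2, 127633226 to 127656695), a proteolipid of membrane sorting, was at 305, 298 and 302 CPM in the MRL/mpj libraries, 399.9, 194 and 233 in MRL/lpr and 166, 305 and 245 in MRL/lpr+MSC. Opalin (ENSMUSG00000050121, chromosome 19, 41061710 to 41077113), a transmembrane glycoprotein of oligodendrocytes and the lowest member by counts, was at 27.1, 22.4 and 26.8 CPM in the MRL/mpj libraries, 32.5, 14.5 and 14.1 in MRL/lpr and 13.0, 24.9 and 18.4 in MRL/lpr+MSC. For both genes the groups overlapped.

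**Figure D1:**
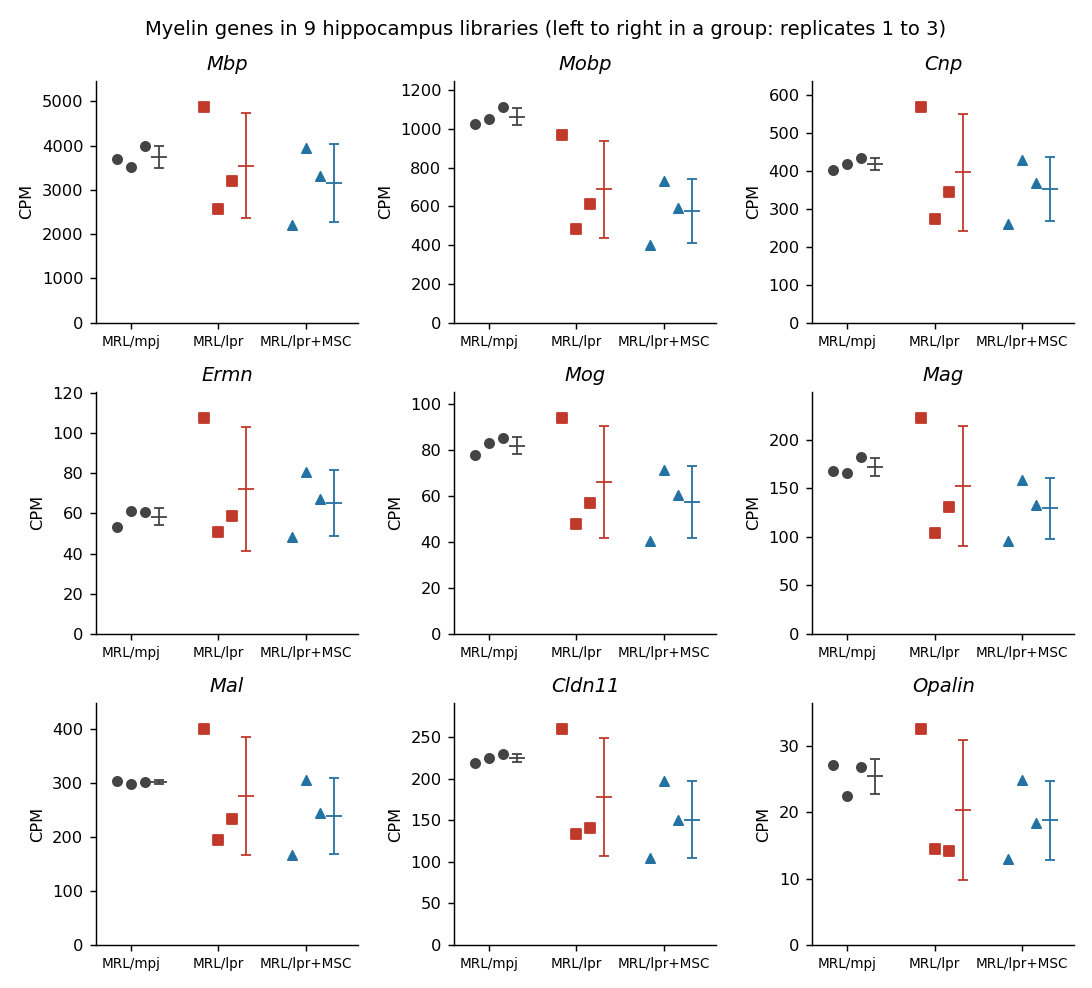
CPM of the 9 members (vertical axes, linear, from 0) in the 3 libraries of each group, with the mean and SD beside the points. The MRL/mpj libraries sit close together, MRL/lpr replicate 1 and MRL/lpr+MSC replicate 1 mark the extremes, and Mobp alone has all 6 libraries of the MRL/lpr groups below MRL/mpj.

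The first comparison asks how hippocampal expression differs between MRL/lpr and MRL/mpj. A gene was called where the adjusted p of limma voom was under 0.05 and the change at least 1.5-fold, on the 6 libraries of the comparison. In MRL/lpr against MRL/mpj, 967 of 16697 genes (5.79%) were called, and 0 of the 9 members were. The largest difference among the members was that of Mobp, with a log2 fold change of -0.69 (SE 0.24, 95% interval -1.26 to -0.13, unadjusted p 0.0239, adjusted p 0.110). Unadjusted, Mobp was the 1 member with p under 0.05, against 30.4% of all genes. Cldn11 was at -0.40 (adjusted p 0.310), Opalin at -0.38 (0.461), Mog at -0.36 (0.344), Mag at -0.25 (0.553), Mal at -0.20 (0.616), Cnp at -0.15 (0.715), Mbp at -0.13 (0.720) and Ermn at 0.24 (0.593). The median over the members was -0.25, and over all genes it was 0.02. Of the members, 1 was lower with no overlap between groups, and this held for 18.8% of all genes.

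These calls depended on MRL/lpr replicate 1. Without it, Mobp, Mog, Cldn11 and Opalin were called lower, against 1.08% of all genes called lower in that fit, with a log2 fold change of -0.96 for Mobp, -0.64 for Mog, -0.70 for Cldn11 and -0.81 for Opalin. Without MRL/lpr replicate 2, by contrast, Mbp, Cnp and Mal were at 0.07, 0.08 and 0.01.

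The second comparison sets MRL/lpr+MSC against MRL/mpj. Here 556 of 16196 genes (3.43%) were called, and again 0 of the 9 members. Mobp was at a log2 fold change of -0.94 (SE 0.22, 95% interval -1.45 to -0.42, unadjusted p 0.00361, adjusted p 0.0591). It was followed by Cldn11 at -0.63 (0.156), Mog at -0.55 (0.168), Opalin at -0.47 (0.269), Mag at -0.44 (0.210), Mal at -0.39 (0.336), Mbp at -0.29 (0.462) and Cnp at -0.28 (0.403), with adjusted p in brackets. Ermn was at 0.13 (0.722). Unadjusted, 4 members were under 0.05, namely Mobp, Cldn11, Mog and Mag, against 22.9% of all genes. These 4 were also those with no overlap between the groups, all lower, against 13.6% of all genes. Mobp was called lower without MRL/lpr+MSC replicate 1 (2.52% of all genes lower), under library quality weights (2.32%) and, together with Cldn11, without MRL/lpr+MSC replicate 2 (0.996%).

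The third comparison sets mice given MSCs beside those that were not. In MRL/lpr+MSC against MRL/lpr, 0 of 16758 genes (0%) were called by limma voom, with 647 (3.86%) at an unadjusted p under 0.05, none of them a member. The log2 fold changes of the members ran from -0.24 for Mobp to -0.08 for Opalin, with adjusted p of 0.926 to 0.982. The intervals were wide, for Mobp -1.01 to 0.52 and for Mbp -0.90 to 0.57, and those of Cnp, Ermn, Mal and Opalin held a change of 1.5-fold in either direction. Without MRL/lpr replicate 1 all 9 values were positive (0.03 to 0.35).

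With all 6 libraries of the MRL/lpr groups set against MRL/mpj, 834 of 17113 genes (4.87%) were called, and 0 of the members. Mobp was at -0.82 (SE 0.24, 95% interval -1.37 to -0.27, adjusted p 0.0708), Cldn11 at -0.52 (0.206), Mog at -0.46 (0.224), Opalin at -0.43 (0.354), Mag at -0.35 (0.353), Mal at -0.30 (0.450), Mbp at -0.22 (0.557), Cnp at -0.22 (0.551) and Ermn at 0.18 (0.662). Mobp was called lower without MRL/lpr replicate 1 (log2 fold change -0.95, 1.79% of all genes lower) and under library quality weights (3.4%). The comparisons with MRL/mpj share the same 3 control libraries and are not independent of each other.

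The members moved together from library to library. Relative to the MRL/mpj mean, the average member stood at 0.979, 0.980 and 1.04 in MRL/mpj, at 1.27, 0.621 and 0.730 in MRL/lpr and at 0.543, 0.965 and 0.785 in MRL/lpr+MSC. MRL/lpr+MSC replicate 1 was the lowest library for 9 of 9 members, and MRL/lpr replicate 1 the highest for 8, with Mobp highest in MRL/mpj replicate 3. The SD of log2 CPM within a group had a median over the members of 0.07 in MRL/mpj, 0.54 in MRL/lpr and 0.43 in MRL/lpr+MSC. Over the 8002 genes averaging 20 CPM or more the median SD was 0.08, 0.11 and 0.12. In both MRL/lpr groups, 9 of 9 members had a larger SD than 90% of these genes, and in MRL/mpj 0 did. The Pearson r between pairs of members over the 9 libraries had a median of 0.94 over 36 pairs (0.43 to 0.99). Taken as deviations from the group means, it had a median of 0.98 (0.93 to 1.00). These correlations describe 9 libraries that differ in depth and composition.

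The level of the lineage in each library was measured without the members, as the mean of centred log2 CPM over 40 other genes of mature oligodendrocytes. This oligodendrocyte level was 0.01, 0.00 and -0.01 in MRL/mpj, 0.56, -0.17 and -0.02 in MRL/lpr and -0.53, 0.15 and -0.00 in MRL/lpr+MSC, so the libraries at its extremes were those at the extremes of the members. The summed CPM of the same 40 genes was 5110, 5106 and 5237 in MRL/mpj, 6491, 3683 and 4194 in MRL/lpr and 3427, 5036 and 4357 in MRL/lpr+MSC. On the sum, MRL/lpr replicate 1 lay above MRL/mpj and the other libraries of the MRL/lpr groups below it. The centred mean weighs all 40 equally, also those with few reads, whereas the sum weighs abundant genes most. In bulk RNA, fewer cells of a type and less RNA per cell cannot be told apart. Of the 40 genes, 1 was called in MRL/lpr against MRL/mpj, Dock5, an exchange factor of Rac, which rose (21.5 ± 3.85 against 13.3 ± 0.631 CPM, log2 fold change 0.68, adjusted p 0.0482), and 0 were called in the comparisons of MRL/lpr+MSC with MRL/mpj and with MRL/lpr. With all 6 libraries of the MRL/lpr groups against MRL/mpj, Ninj2, with a mean of only 0.935 CPM, was called lower (-0.94, adjusted p 0.0405). The medians over the 40 were 0.13 in MRL/lpr and -0.15 in MRL/lpr+MSC against MRL/mpj, where those of all 9 members were -0.25 and -0.44. The medians were -0.36 and -0.47 for the 5 membrane members and -0.14 and -0.29 for the 4 cytoplasmic members.

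**Figure D2:**
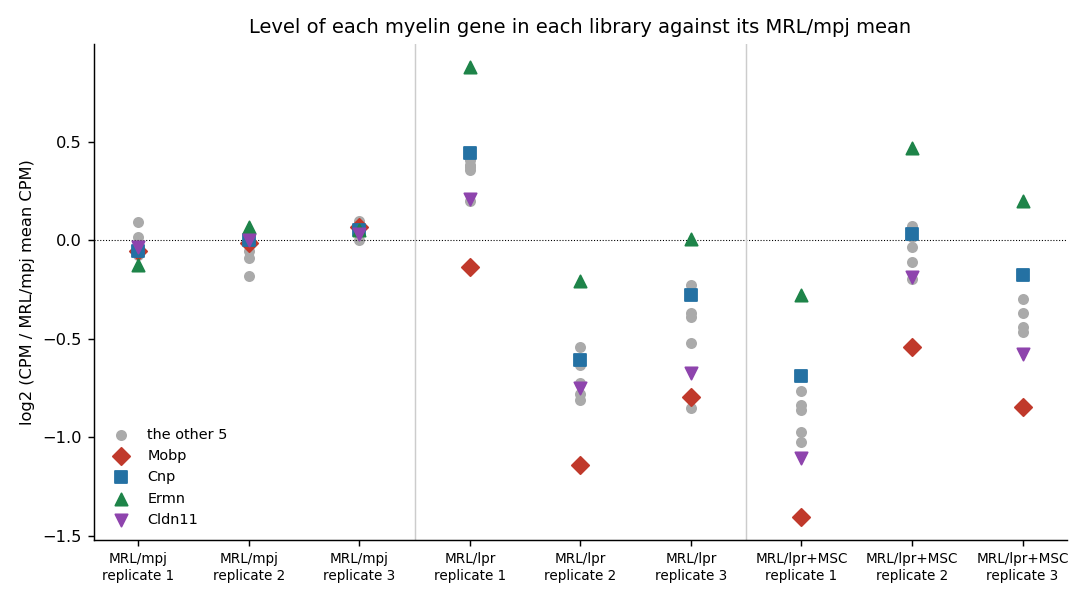
Level of each member in each library, as log2 of its CPM over its mean CPM in MRL/mpj (vertical axis, 0 is the MRL/mpj mean). In the 6 libraries of the MRL/lpr groups Ermn is the uppermost point, and Mobp the lowest in all but MRL/lpr replicate 3, where Opalin lies slightly below it.

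Set against the other 8 members of the same library, Mobp was lower in all 6 libraries of the MRL/lpr groups. On the log2 scale, with the MRL/mpj mean at 0, this relative level was -0.02, 0.02 and 0.01 in MRL/mpj, -0.54, -0.51 and -0.38 in MRL/lpr and -0.59, -0.55 and -0.56 in MRL/lpr+MSC. That of Ermn was -0.11, 0.11 and -0.01 in MRL/mpj, 0.60, 0.54 and 0.52 in MRL/lpr and 0.68, 0.59 and 0.62 in MRL/lpr+MSC. For both genes the spread between libraries, wide in CPM, was narrow on this scale, and neither MRL/lpr group overlapped MRL/mpj. Cnp lay above MRL/mpj in all 6 libraries by smaller amounts (0.09 to 0.22), and Mog (-0.17 to -0.08) and Cldn11 (-0.26 to -0.07) lay below it. For Mbp, Mag, Mal and Opalin the groups overlapped. A relative level falls when the others rise and rises when they fall. The movements of Mobp and Ermn thus feed into each other's and into those of the other members. Cnp lay above MRL/mpj on this scale, although its own log2 fold change in both MRL/lpr groups against MRL/mpj was -0.22. The share of other genes without overlap on such a scale was not counted. A relative level therefore shows unequal change only.

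The same holds on the FPKM scale. The ratio of Mobp to Cnp was 1.43, 1.42 and 1.44 in MRL/mpj (mean 1.43 ± 0.0139), 0.958, 0.991 and 0.999 in MRL/lpr (0.983 ± 0.0216) and 0.871, 0.963 and 0.901 in MRL/lpr+MSC (0.912 ± 0.0470). The ratio of Mobp to Mbp was 0.370 ± 0.0164 in MRL/mpj, 0.250 ± 0.00720 in MRL/lpr and 0.237 ± 0.00469 in MRL/lpr+MSC. The ratio of Mobp to Ermn was 10.2 ± 0.569, 5.43 ± 0.417 and 4.90 ± 0.210. These ratios are given as a description, with no test.

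A fit with the oligodendrocyte level as a covariate compared libraries at an equal centred level of the 40 other genes, not at an equal summed CPM. It was added after the data were seen. In MRL/mpj the level ran only from -0.005 to 0.007, against -0.53 to 0.56 in the MRL/lpr groups. The slope thus came almost wholly from the MRL/lpr groups and was assumed for MRL/mpj. The SE and adjusted p of the comparisons with MRL/mpj rest on this. With all 6 libraries of the MRL/lpr groups against MRL/mpj, 7.05% of all genes were called, 2.49% lower, and of the members Mobp was called. Its log2 fold change was -0.81 (SE 0.06, 95% interval -0.96 to -0.67, adjusted p 0.000471), almost the value without the covariate, with an SE of 0.24 there. Leaving out any of the 9 libraries in turn kept it between -0.84 and -0.77, and called each time. Cldn11 (-0.52, adjusted p 0.00400), Mog (-0.46, 0.00269), Opalin (-0.46, 0.0362), Mag (-0.35, 0.0188) and Mal (-0.29, 0.0128) passed the adjusted p but not the 1.5-fold limit. An adjusted p under 0.05 with a lower level at any fold was found for 6 of the 9 members and for 6.57% of all genes. Of the 40 other genes of mature oligodendrocytes, 7 also met this. Cnp (-0.21, 0.0550), Mbp (-0.21, 0.0708) and Ermn (0.18, 0.156) did not pass. For the single comparisons on their own 6 libraries Mobp was also called, at -0.85 (adjusted p 0.0109) in MRL/lpr, where 1.58% of all genes were called lower, and at -0.77 (0.00181) in MRL/lpr+MSC, where 2.22% were. In MRL/lpr+MSC against MRL/lpr on their 6 libraries no member was called, and the values of all 9 were positive, from 0.08 to 0.32. With all 9 libraries in 1 fit, Mobp and Opalin were called lower in MRL/lpr against MRL/mpj (2.16% of all genes) and Mobp in MRL/lpr+MSC against MRL/mpj (1.43%).

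**Figure D3:**
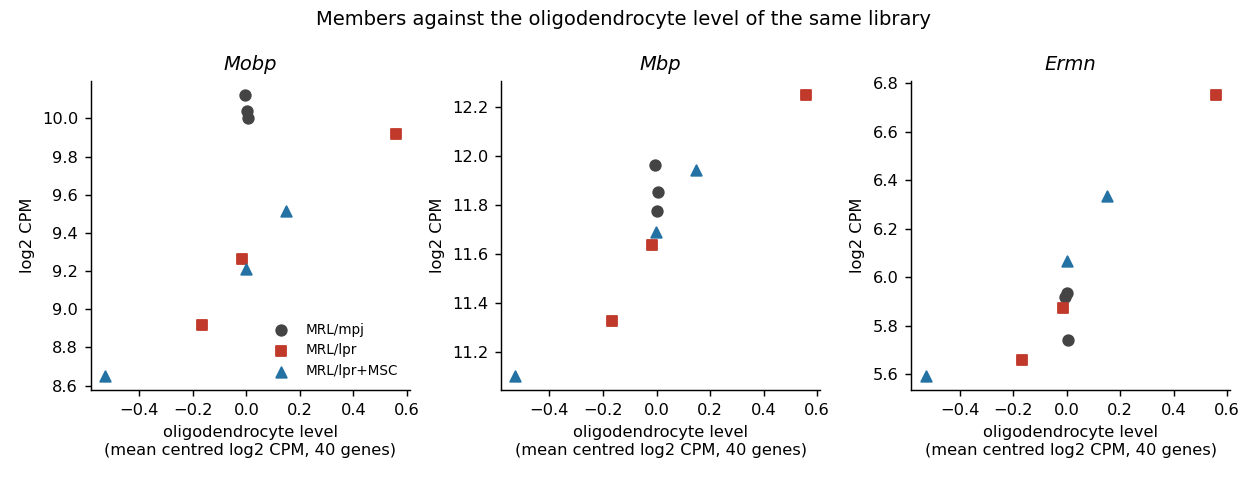
log2 CPM of Mobp, Mbp and Ermn (vertical axes) against the oligodendrocyte level of the same library (horizontal axis, mean centred log2 CPM of 40 other genes), with 1 point per library. Libraries of the MRL/lpr groups with a level near 0 lie well below the MRL/mpj libraries for Mobp, slightly below for Mbp, and among or above them for Ermn.

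In the same fit, Mobp ranked second from the lowest among 60 genes of mature oligodendrocytes, myelin lipid synthesis and the members together. Of the 40 other genes, 3 were called lower. They were Ninj2 (log2 fold change -0.95, adjusted p 0.0334), a cell adhesion protein, Tspan2 (-0.76, 0.00156), a tetraspanin of oligodendrocytes, and Hapln2 (-0.60, 0.00602), a link protein of the matrix at nodes of Ranvier. Tppp, a microtubule protein, was at -0.48 (0.0185), short of 1.5-fold. Prr5l was the 1 gene of the 40 higher with an adjusted p under 0.05 (0.49, 0.0459), short of 1.5-fold, and Klk6 (0.94, 0.193) and Trf (0.84, 0.111) did not pass. Few reads stand behind Ninj2 (mean 0.935 CPM, 8 to 34 counts), Trf (0.799 CPM, 8 to 38) and Klk6 (1.28 CPM, 5 to 96). The median over the 40 was 0.01, as the covariate is built from these genes. Of the 11 lipid synthesis genes outside the 40, 0 passed in either direction, with a median of 0.05.

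Genes around the members were counted by fixed lists. Of 12 genes of myelin lipid synthesis 0 were called in any comparison, and the median log2 fold change was 0.13 in MRL/lpr and -0.01 in MRL/lpr+MSC against MRL/mpj. Its most abundant genes, Elovl5, a fatty acid elongase (0.23 and 0.09), and Far1, a fatty acyl reductase (-0.07 and -0.00), did not pass. Of 12 genes of nodes and paranodes 0 were called, with 11 and 9 negative and medians of -0.25 and -0.13. Among them, Cntn1, the axonal contactin of the paranode, was at -0.30 (adjusted p 0.0852) and -0.11 (0.556), and Ank3, the ankyrin of the node, at -0.25 (0.071) and -0.14 (0.279). Scn8a, the sodium channel of mature nodes (-0.58, adjusted p 0.0436), and Cntnap1, the partner of contactin at the paranode (-0.48, 0.0388), passed the adjusted p in MRL/lpr but not the 1.5-fold limit.

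Of 13 transcription factors of the lineage, 1 was called lower in MRL/lpr and 2 in MRL/lpr+MSC against MRL/mpj. Zfp536 fell in both, from 32.5 ± 3.26 CPM in MRL/mpj to 21.3 ± 1.38 in MRL/lpr (log2 fold change -0.61, adjusted p 0.0212) and 18.8 ± 2.97 in MRL/lpr+MSC (-0.80, 0.0259). It is a repressor of differentiation that neurons also express. Zfp488, an oligodendrocyte zinc finger protein, fell in MRL/lpr+MSC (4.15 ± 0.163 against 7.19 ± 0.736 CPM, -0.78, adjusted p 0.0333) and was at -0.65 (0.0745) in MRL/lpr. Of the 13 precursor genes tested, Sox6 rose in MRL/lpr+MSC (32.6 ± 2.99 against 20.7 ± 2.20 CPM, 0.66, adjusted p 0.0256), and it too is expressed outside the lineage. Of 12 genes of newly formed oligodendrocytes 0 were called, and Bcas1, an early myelin gene, was at -0.14 (0.748) and -0.36 (0.430), and Fyn, a kinase of axon contact, at -0.21 (0.126) and -0.14 (0.365).

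Mag is also one of the myelin-associated inhibitors of axon growth, with Omg and Rtn4 (Nogo). None of these 3 was called in either comparison. Omg was at 72.2 ± 5.97 CPM in MRL/lpr and 73.9 ± 4.43 in MRL/lpr+MSC against 105 ± 2.503 in MRL/mpj, with log2 fold changes of -0.53 (adjusted p 0.0116) and -0.51 (0.00923), under the 1.5-fold limit. Rtn4 was at 555 ± 27.3 and 599 ± 40.5 against 756 ± 38.4 CPM, with -0.44 (0.0187) and -0.34 (0.0570). Both are expressed by neurons as well. Of their receptors, 8 were tested in MRL/lpr and 7 in MRL/lpr+MSC and 0 were called, with the most abundant, Lrp1 (0.01 and 0.08) and Lingo1 (-0.62, adjusted p 0.0941, and -0.29, 0.486), short of the test.

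Among 12 tested signals that promote myelination, Fgfr2, a growth factor receptor, rose in MRL/lpr (67.9 ± 9.99 against 44.7 ± 3.83 CPM, 0.60, adjusted p 0.0307) and Adgrg1, an adhesion receptor of precursors, rose in MRL/lpr+MSC (91.0 ± 15.3 against 56.1 ± 7.23 CPM, 0.69, 0.0410). A further 10 genes were listed as parts or targets of signals that hold it back. Of these, Hes5, a Notch target, rose in MRL/lpr (5.67 ± 1.23 against 1.497 ± 0.930 CPM, 2.01, 0.0291). Axin2, a Wnt target, rose there too (29.1 ± 2.17 against 18.2 ± 3.93 CPM, 0.68, 0.0380). Being the target of such a signal does not mean that the gene itself holds myelination back. All 4 are expressed by astrocytes or other cells of the tissue too. Of 14 genes seen in oligodendrocytes in disease, 1 was called in each comparison, B2m, the light chain of MHC class I, which all cells express and which rose from 63.3 ± 6.50 CPM to 262 ± 122 in MRL/lpr (1.96, adjusted p 0.0176) and 126 ± 30.3 in MRL/lpr+MSC (0.96, 0.0411). In MRL/lpr+MSC against MRL/lpr no gene of any of these lists was called.

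Marker lists of other cell types and regions also differed between the libraries, and their part in the members' values was not tested. The summed CPM of 6 choroid plexus markers ran from 165 to 703 in MRL/mpj, from 106 to 9488 in MRL/lpr and from 100.5 to 4804 in MRL/lpr+MSC. That of 8 thalamic markers ran from 155 to 198, 209 to 634 and 87.3 to 557, and that of 8 striatal markers from 41.7 to 44.4, 57.8 to 141 and 45.4 to 167. Markers of CA1 pyramidal and dentate granule cells ran from 1197 to 1456 in MRL/mpj, 784 to 1061 in MRL/lpr and 839 to 1064 in MRL/lpr+MSC, so that MRL/mpj lay above all the others. Summed neuron markers ran from 5928 to 6813, 4603 to 5273 and 4944 to 7406, astrocyte markers from 5518 to 5983, 4858 to 6294 and 5984 to 6333, microglia markers from 316 to 347, 266 to 347 and 270.0 to 302, and endothelial markers from 257 to 291, 289 to 318 and 313 to 354. The library with the most choroid plexus RNA, MRL/lpr replicate 2, had the lowest average member of its group, whereas the next, MRL/lpr+MSC replicate 2 (4804 CPM), had the highest of its own. MRL/lpr+MSC replicate 1, lowest for all 9 members, had the least choroid plexus (100.5 CPM) and thalamic RNA (87.3 CPM) and the most neuron RNA (7406 CPM). The libraries with the most thalamic and striatal RNA, replicate 3 of each MRL/lpr group, lay between the others on the members' average. Markers of Schwann cells, which make the myelin of peripheral nerves, summed to between 4.46 and 9.71 CPM in every library, and up to 2 of the 5 were at 0.

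Of these lists the genes called were Sox9, an astrocyte factor, which rose in both groups (1.30, adjusted p 0.0129, and 1.09, 0.00548), Cldn5, the endothelial claudin, which rose in both (0.73, 0.00830, and 0.87, 0.0118), and Fibcd1, a CA1 marker, which fell in both (-1.11, 0.00370, and -0.79, 0.00876). Pou3f1, also of CA1, fell in MRL/lpr (-1.22, 0.0164), and Rgs9, a striatal marker, rose there (0.96, 0.0310). No microglia, neuron, choroid plexus, thalamic or Schwann cell marker was called. Across all lists, other genes that passed the adjusted p against MRL/mpj without reaching 1.5-fold were Tppp (-0.57, 0.00830), P2ry12 (-0.57, 0.0151), Cx3cr1 (-0.46, 0.0380), Syt1 (-0.54, 0.0243) and S100a1 (0.36, 0.0332) in MRL/lpr, and Vcan (-0.41, 0.0477), Rras2 (-0.48, 0.0445) and Cx3cr1 (-0.42, 0.0399) in MRL/lpr+MSC.

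The genes whose pattern over the 9 libraries was most like the members' mean were sought among 11868 other genes averaging 5 CPM or more. Among the 10 with the highest Pearson r were Carhsp1 (0.978), Reep3 (0.977), Lpar1 (0.9754), Gjc3 (0.9751), Sec14l5 (0.973), Pip4k2a (0.963), Oxsr1 (0.963), Rnf13 (0.958) and Bcas1 (0.953). In all, 35 genes had an r above 0.9. The 40 other oligodendrocyte genes had a median r of 0.72, and the lowest was 0.05. These values describe 9 libraries and carry no test.

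Around each member, the genes within 500 kb were examined. Near Mobp, 14 genes were tested and 2 were called in both comparisons with MRL/mpj, both lower. Gm37111, 1.1 kb from Mobp, was at 3.76 CPM in MRL/mpj, 0.771 in MRL/lpr and 0.712 in MRL/lpr+MSC, with log2 fold changes of -2.29 (adjusted p 0.0105) and -2.44 (0.0118). Without strand, reads of such a close neighbour cannot be told apart from reads of Mobp transcripts that run past the annotated gene. Rpl14, a ribosomal protein gene 390 kb away, was at 253, 149 and 143 CPM, with -0.76 (0.00403) and -0.82 (0.00282), and as a ribosomal protein gene it may share reads with processed copies. Near Mbp, Mog, Mag, Cldn11 and Opalin, 0 of 5, 9, 33, 8 and 12 tested genes were called, and near Cnp, Ermn and Mal 5 of 28, 2 of 4 and 2 of 20 in either comparison. Each comparison alone called 5.79% (MRL/lpr) and 3.43% (MRL/lpr+MSC) of all genes. In MRL/lpr, 4 were higher and 1 lower near Cnp, 1 and 1 near Ermn, and 1 and 0 near Mal. In MRL/lpr+MSC these were 2 and 1, 0 and 1, and 1 and 0.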

How the data were processed

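The authors aligned reads to mm10/GRCm38 with STAR, per the study's methods (the labels name TopHat2), counted reads per gene, and deposited the raw counts and, as 1 table per library, FPKM. Strand use in counting is not stated. All 9 FPKM tables were closest to their own column of the count matrix, and 0 sample columns stayed unmatched. Counts were scaled by TMM (30% of log ratios and 5% of levels trimmed), and CPM are after this scaling. A gene entered the test with 15 counts in all and, in 3 or more libraries, the CPM that 10 counts make at median depth. limma voom with robust empirical Bayes (limma 3.58.1, statmod 1.5.0, R 4.3.3) gave p-values, adjusted by Benjamini-Hochberg across the tested genes. Calls asked for an adjusted p under 0.05 with a change of 1.5-fold or more. The design had named a quasi-likelihood count test. That test was not run, and limma voom was applied in its place to the raw counts of the matrix. P-values measure the spread between libraries, which may hold technical differences, such as dissection, beside those between mice.

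The rule that names the members uses no measured value, but the members, lists and comparisons were chosen with earlier results of these data known. Named genes are every member, the called genes of each list (up to 4) or else its 2 most abundant, and the 10 genes most like the members. Of these 10, not all are reported here. Genes named from the equal-level fit, the neighbours and the list genes short of 1.5-fold were chosen after their values were seen. The fits were tested on simulated data. Symbols and positions come from GENCODE (GRCm38), matching 47224 of 47643 genes. Other settings covered scaling, filters, libraries left out, library weights, the replicate number as a block and the oligodendrocyte level as a covariate.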

Additional observations from a re-analysis of the deposited data

How the results depend on the processing

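The call of 0 members held in each of the 3 comparisons under other size factors, no filter, a 1 CPM filter, 1 fit of all 9 libraries, limma-trend and the replicate block. With the oligodendrocyte level as a covariate, 1 member (Mobp) was called in MRL/lpr and 1 in MRL/lpr+MSC against MRL/mpj, with 1221 genes called in the latter; over all 9 libraries 2 (Mobp and Opalin), 1, and 1 for the pooled groups were. Library quality weights gave 1 member (Mobp) in MRL/lpr+MSC and 1 in the pooled comparison, with 2065, 1177 and 1938 genes, and set Mbp, Cnp and Mal in MRL/lpr to 0.0561, 0.0743 and 0.0261. A test against a 1.5-fold change called 104, 100 and 136 genes. In MRL/lpr+MSC against MRL/lpr, the covariate turned the sign of Mbp, Mobp, Cnp, Ermn, Mog, Mag, Mal, Cldn11 and Opalin (0.14, 0.0785, 0.18, 0.23, 0.13, 0.13, 0.15, 0.11 and 0.32 on 6 libraries, and 0.14, 0.0735, 0.17, 0.22, 0.12, 0.12, 0.15, 0.11 and 0.31 on 9). The cause was not tested. Leaving out 1 library gave 165 to 1695 genes and 0 to 4 members in MRL/lpr, 193 to 1514 and 0 to 2 in MRL/lpr+MSC, 0 and 0 between them, 348 to 1243 and 0 to 1 pooled, and 458 to 1477 and 1 pooled at equal level. The values so obtained ran, in MRL/lpr, from -0.38 to 0.0701 for Mbp, -0.44 to 0.0780 for Cnp, -0.50 to 0.0137 for Mal and -0.0933 to 0.45 for Ermn, in MRL/lpr+MSC from -0.0564 to 0.34 for Ermn, and between the MRL/lpr groups from -0.37 to 0.0853 for Mbp, -0.46 to 0.0259 for Mobp, -0.36 to 0.15 for Cnp, -0.31 to 0.23 for Ermn, -0.39 to 0.0921 for Mog, -0.43 to 0.11 for Mag, -0.40 to 0.11 for Mal, -0.44 to 0.0771 for Cldn11 and -0.30 to 0.35 for Opalin. With the replicate number as a block, 1333, 280, 0 and 848 genes and 0 members were called. Same-numbered libraries did not deviate together throughout (r of 0.00067, 0.196 and 0.0934 for MRL/lpr with MRL/mpj, -0.0629, 0.0784 and 0.210 for MRL/lpr+MSC with MRL/mpj, -0.209, 0.228 and 0.346 between the MRL/lpr groups). Replicates 2 and 3 matched best with their own number in each comparison, and replicate 1 did not. With 3 libraries in a group, these values cannot decide whether the numbers pair the libraries. Both planned count-model tests were not run. The lowest count of a member in a library was 247, and each group holds 3 libraries.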
